A study of Homo sapiens with 6 samples.

Results

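The genes described here are 35 interferon-stimulated genes that lie outside the large interferon-induced families, such as the guanylate-binding proteins, the OAS and IFIT genes and the MHC genes. They were taken by symbol from a list of such genes, and all 35 were found among the 19402 genes of the count table. The cells were CFPAC1, an established human line of pancreatic ductal adenocarcinoma, and poly(A) RNA was sequenced. One group, WT, was 3 pools of clones isolated by dilution from cells infected with the lentiCRIPSv2 plasmid. The comparison asks how expression differed in a second group, IRF1-KO, which was 3 pools of clones made the same way with a plasmid that carried wild-type Cas9 and a guide RNA against IRF1. No interferon or other stimulus is named for these 6 samples, and the labels do not say how many clones went into a pool or whether they were cultured and prepared on different days, so the p-values speak only of the spread among these pools.

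Interferons bind receptors whose JAK kinases activate STAT proteins. Type I and type III interferons lead to a complex of STAT proteins with IRF9, which binds a DNA element called the interferon-stimulated response element (ISRE) in the promoters of interferon-stimulated genes. IRF1 is a transcription factor that is itself induced by interferon, mainly by type II interferon, and binds closely related sequences. The 35 genes act at many steps of the antiviral state: they hinder virus entry, unwind or degrade RNA, alter tryptophan and nucleotide metabolism, or feed back on the signalling itself.

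The element can be read in the promoters of many of these genes. RefSeq promoter windows (GRCh38.p14, from 250 bases before to 50 after a transcription start) were matched for 30 of the 35 genes, in 38 windows, and not for IFITM2, SLFN5, PHF11, LY6E and IDO1. The ISRE core was searched on both strands as GAAA, any 2 bases and GAAA. It was found for 18 of 30 genes (60%), against 3.57% of 35116 promoter windows of the same length and 4.15% of 10855 tested genes with a window. In 15 of the 18 genes a match began within 100 bases before a start. The matches shown first are from genes with 2 or 3 of them, as 30-base windows on the strand of the gene with the match in capitals. For IFI6, DDX60L, IFITM1 and IFITM3 not every match is shown.

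RTP4 distal match, chr3:187368333-187368362, plus strand: tccatacacaGAAACAGAAActgaaccgaa
RTP4 proximal match, chr3:187368357-187368386, plus strand: accgaacaccGAAACTGAAActgtttgtct
DDX60 distal match, chr4:168318821-168318850, minus strand: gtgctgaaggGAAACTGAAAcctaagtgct
DDX60 proximal match, chr4:168318786-168318815, minus strand: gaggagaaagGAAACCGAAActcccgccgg
DDX60L proximal match, chr4:168480523-168480552, minus strand: gtggagaaaaGAAACCGAAActaactccct
IFI27 inverted match, chr14:94110618-94110647, plus strand: atgtctgcagTTTCGGTTTCctggaaaatg
IFI27 direct match, chr14:94110631-94110660, plus strand: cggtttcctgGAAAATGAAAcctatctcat
IFI6 distal match, chr1:27672329-27672358, minus strand: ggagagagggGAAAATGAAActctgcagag
IFI6 middle match, chr1:27672288-27672317, minus strand: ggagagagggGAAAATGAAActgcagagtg
IFI44L distal match, chr1:78620274-78620303, plus strand: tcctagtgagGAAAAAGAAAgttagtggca
IFI44L proximal match, chr1:78620365-78620394, plus strand: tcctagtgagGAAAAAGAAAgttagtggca
IFITM1 proximal match, chr11:314024-314053, plus strand: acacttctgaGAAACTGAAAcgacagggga
IFITM3 proximal match, chr11:320876-320905, minus strand: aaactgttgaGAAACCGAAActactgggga

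The windows around the 2 matches of IFI44L are identical in all 30 bases. The 2 RTP4 matches begin 42 and 18 bases before the start. Genes with 1 match are represented by a gene with a large difference between groups, EPSTI1, and a gene with a small one, LGALS3BP.

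EPSTI1, chr13:42992272-42992301, minus strand: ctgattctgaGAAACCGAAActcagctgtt
LGALS3BP, chr17:78979962-78979991, minus strand: gtggtttctgGAAATCGAAAgtagactctt

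Total counts ranged from 16413682 to 28258075 per library, and 13388 genes were counted deeply enough to be tested. Levels are given as CPM, the count of a gene relative to the total of its library after scaling with TMM factors. Of 9 markers of pancreatic ductal epithelium, 8 passed the count filter, among them KRT8 and KRT19, and CFTR did not, with at most 0.657 CPM. Some markers were uneven among the WT libraries. CDH1 had 499, 378 and 107 CPM and KRT7 508, 480 and 157 CPM in WT replicates 1 to 3. In IRF1-KO replicates 1 to 3 they had 279, 422 and 239 CPM and 316, 777 and 336 CPM. Fibroblast and endothelial marker lists had overlapping summed levels, and the leukocyte list summed to 29.4 to 78.4 CPM in WT and 17 to 28.2 CPM in IRF1-KO. Most of that was the lysozyme gene LYZ, while the defining leukocyte genes PTPRC and CD3E stood at 0.122 CPM or less in every library. In bulk RNA, fewer cells expressing a gene and less RNA per cell cannot be told apart.

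The IRF1 transcript does not check the labels. It stood at 87.3, 91.3 and 82.6 CPM in WT replicates 1 to 3, against 117, 123 and 132 CPM in replicates 1 to 3 of IRF1-KO. All IRF1-KO libraries were above all WT libraries. A Cas9 cut can leave a transcript in place, so the groups below are named as the libraries were labelled.

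All 35 genes passed the filter on low counts, and all 35 had a negative fitted log2 fold change in IRF1-KO against WT, from −4.15 to −0.02, with a median of −0.57. Over all 13388 tested genes the median was −0.0175, and 53.3% of genes were negative. RTP4 was the 1 gene of the 35 called by the edgeR quasi-likelihood F test (Benjamini-Hochberg adjusted p under 0.05 over all tested genes). Of all tested genes 0.112% were called lower and 0.0149% higher. At an unadjusted p of 0.05, 19 of the 35 were lower and 0 higher, against 3.75% and 5.39% of all tested genes. DESeq2 called 11 of the 35 lower and 0 higher, against 0.937% and 1.53% of the genes for which it gave an adjusted p. The 11 were RTP4, RNF213, NMI, DDX60L, EPSTI1, IDO1, DDX60, MOV10, IFITM1, IFI35 and IFI44. In 16 of the 35 genes every IRF1-KO library lay below every WT library, against 6.75% of all tested genes, and in 0 did every IRF1-KO library lie above, against 8.03%. IDO1 had under 10 counts in every IRF1-KO library and so passed the filter through WT alone. Over the other 34 genes the counts were 18 lower at an unadjusted p under 0.05, 10 called lower by DESeq2 and 15 without overlap, with a median of −0.55.

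**Figure D1:**
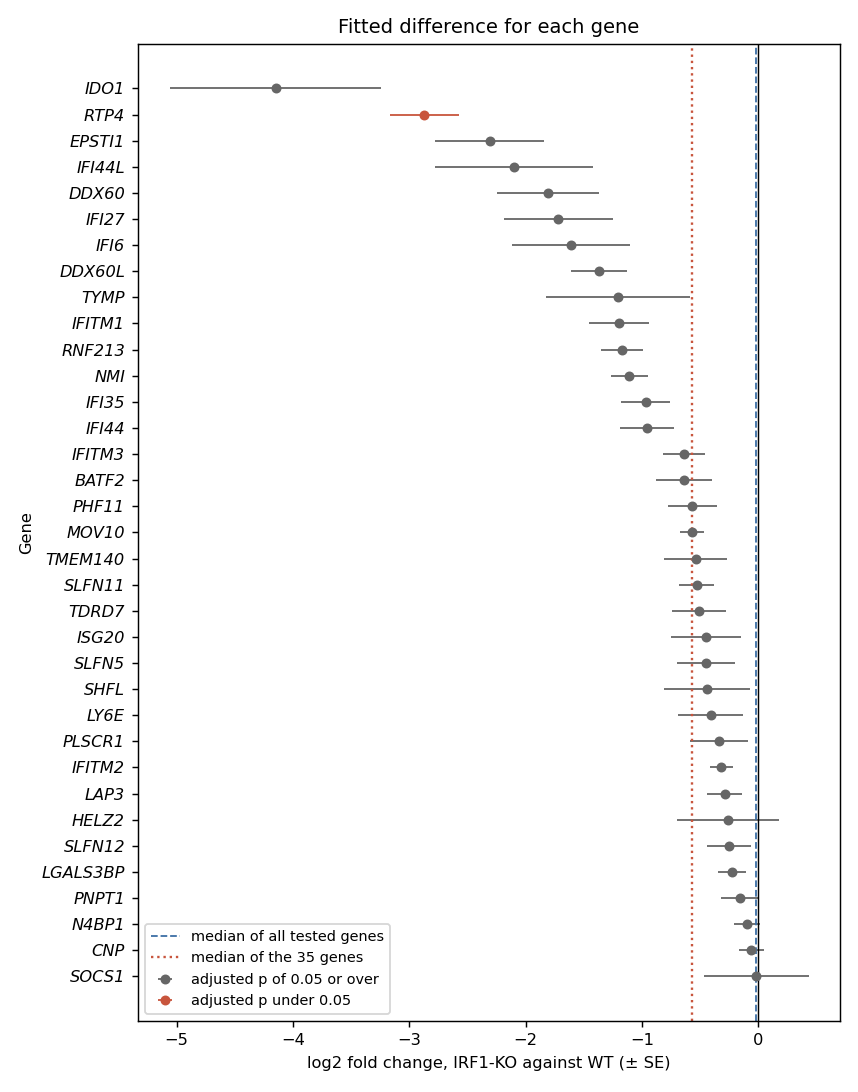
Fitted log2 fold change of IRF1-KO against WT (x axis, ± SE) for each of the 35 genes (y axis), with dashed and dotted lines at the medians of all tested genes and of the 35. All points lie below 0, from −4.15 for IDO1 to −0.02 for SOCS1, and RTP4 alone has an adjusted p under 0.05 with edgeR.

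Libraries of the same group varied among themselves, and 2 of them stood apart for many of the 35 genes. Over the 35 genes the median SD of log2 CPM was 0.43 among WT libraries and 0.29 among IRF1-KO libraries, against 0.21 and 0.18 over all tested genes. WT replicate 1 was the lowest WT library for 25 of the 35 genes, which held for 37% of all tested genes. IRF1-KO replicate 2 was the highest IRF1-KO library for 28 of the 35, against 36.8% of all tested genes. Both held for 21 of the 35, against 14.3%. IRF1-KO replicate 2 was above WT replicate 1 for 14 of the 35 genes, against 48.4% of all tested genes.

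Counts of GC-rich transcripts differed between libraries and moved with the groups. For tested genes above 65% GC the median log2 fold change was 0.52. Their median deviation from their own means (log2 CPM) was −0.59, −0.13 and −0.10 for WT replicates 1 to 3, and 0.10, 0.46 and 0.31 for IRF1-KO replicates 1 to 3. WT replicate 1 and IRF1-KO replicate 2 were the extremes, while IRF1-KO replicate 3 was high for these genes and low for the 35. Among the 16 members under 50% GC, WT replicate 1 was lowest in its group for 10 and IRF1-KO replicate 2 highest in its group for 10. Among the other 19 the counts were 15 and 18. After each library's trend with GC content was subtracted, WT replicate 1 was lowest for 25 of 35 and IRF1-KO replicate 2 highest for 25. The matching shares of all tested genes, within a GC range or after that subtraction, were not worked out. Whether GC content lies behind the pattern of these 2 libraries was not tested. With that correction 34 of the 35 log2 fold changes were negative, with a median of −0.63 and 19 genes without overlap (5.6% of all tested genes). The 3 members over 65% GC, TYMP, SOCS1 and HELZ2, moved down with it, to −1.99, −0.70 and −0.79. Without WT replicate 1 the genes with no overlap numbered 27 (13.9% of all tested genes), and without IRF1-KO replicate 2 they numbered 25 (12%).

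**Figure D2:**
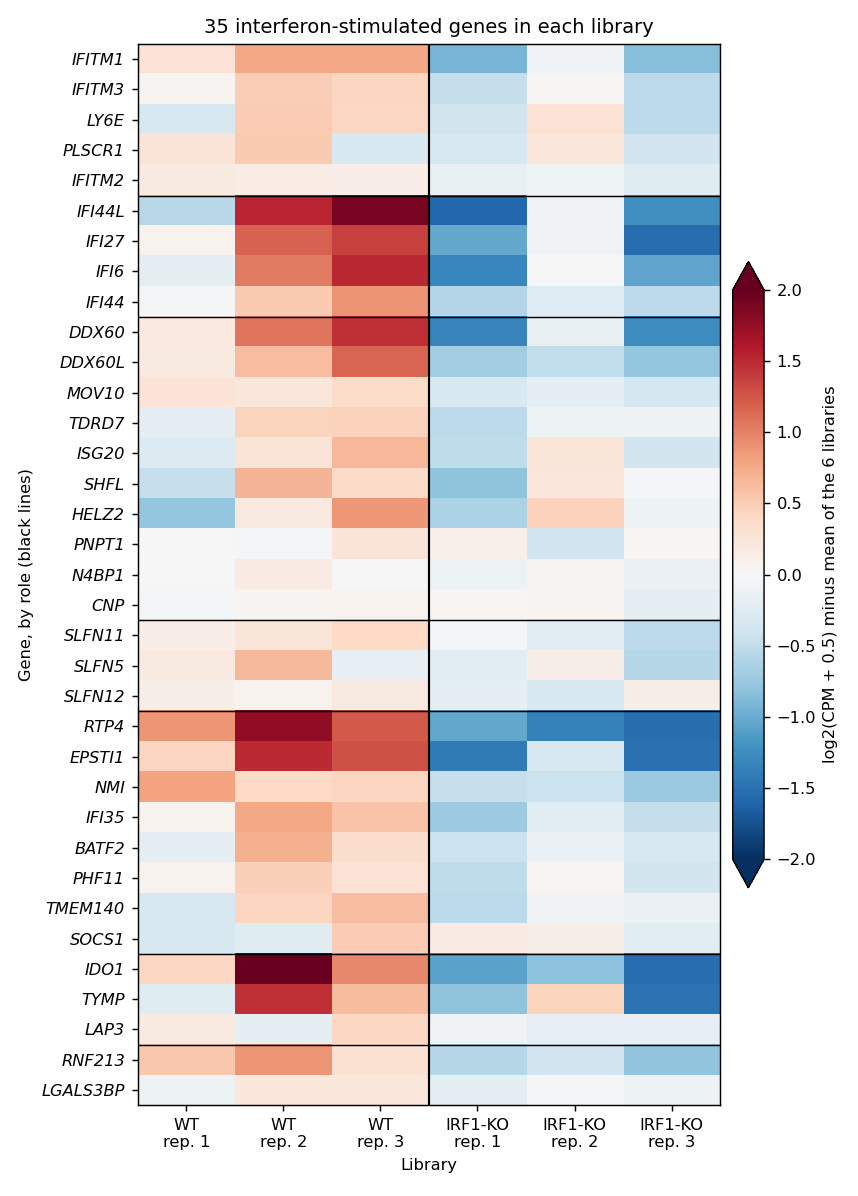
Level of each of the 35 genes (rows, grouped by role) in each library (columns), as log2(CPM + 0.5) minus the mean of the 6 libraries, with red above and blue below the mean. WT replicates 2 and 3 were above their own mean for 32 of the 35 genes each, WT replicate 1 for 21, and IRF1-KO replicates 1, 2 and 3 for 3, 13 and 2.

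RTP4, a receptor-transporting chaperone with antiviral activity, was the gene past the edgeR threshold. RTP4 (ENSG00000136514.3; GRCh38 chromosome 3, 187368385 to 187372076, plus strand) had 11.9, 22.4 and 15.3 CPM in WT replicates 1 to 3, against 2.80, 2.13 and 1.87 CPM in replicates 1 to 3 of IRF1-KO. Every IRF1-KO library was well below the lowest WT library, and IRF1-KO replicate 2 was not the highest of its group. The means were 16.5 ± 5.34 and 2.27 ± 0.481 CPM (SD, n = 3 each), a 7.33-fold difference (log2 fold change −2.87 ± 0.30, SE; edgeR quasi-likelihood adjusted p = 0.0178). The call was lost without WT replicate 2 (−2.59, edgeR adjusted p = 0.0627) and without IRF1-KO replicate 1 (−3.02, 0.0924), replicate 2 (−2.83, 0.0760) or replicate 3 (−2.75, 0.167). It was also lost with the replicate number as a block (−2.85, edgeR adjusted p = 0.0509). The labels do not say whether same-numbered libraries were paired. Over the 14 alternatives the adjusted p ranged from 1.86e-16 to 0.167. Its promoter holds both of the matches printed above.

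RTP4 was placed, for description only, in a mixed group with the genes of signalling and transcription. Of the 8 in this group 1, RTP4, was past the threshold, and all 8 had negative values (median −0.80). In 5 every IRF1-KO library lay below every WT library, against 6.75% of all tested genes. NMI and IFI35 encode a pair of interferon-induced proteins that bind each other. NMI stood at 53.7, 40.3 and 41.1 CPM in the WT libraries against 22.1, 22.5 and 18.1 CPM in the IRF1-KO libraries. The groups did not overlap and both were narrow (log2 fold change −1.11 ± 0.16, SE; edgeR adjusted p = 0.0663). NMI passed the threshold without WT replicate 3 (edgeR adjusted p = 0.0463) and with no filter on low counts (0.0393). IFI35 had 43.1, 71.0 and 61.5 CPM in the WT libraries against 24.6, 35.5 and 29.4 CPM in the IRF1-KO libraries, again without overlap (−0.97 ± 0.21, SE; edgeR adjusted p = 0.173).

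EPSTI1, a gene first known from epithelial cells in contact with stroma, had 6.62, 14.5 and 12.4 CPM in the WT libraries against 1.52, 3.77 and 1.39 CPM in the IRF1-KO libraries. WT replicate 1 was the low library of its group and IRF1-KO replicate 2 the high one, and the groups stayed apart (log2 fold change −2.31 ± 0.47, SE; edgeR adjusted p = 0.153). PHF11, a PHD-finger gene, had 11.7 to 15.7 CPM in WT and 7.62 to 11.4 CPM in IRF1-KO, so that its groups nearly touched. BATF2, a transcription factor of the AP-1 family, had values of 12.9, 24.5 and 19.1 CPM in the WT libraries against 10.9, 13.6 and 11.8 CPM in the IRF1-KO libraries. IRF1-KO replicate 2 thus lay above WT replicate 1. TMEM140, a membrane protein gene, also overlapped, with 9.85 CPM in WT replicate 1 and 11.8 and 11.4 CPM in IRF1-KO replicates 2 and 3.

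SOCS1, which blocks JAK kinases and so limits interferon signalling, showed no difference that could be resolved. It was near the floor of the data at 0.602, 0.653 and 1.44 CPM in the WT libraries against 1.04, 0.977 and 0.674 CPM in the IRF1-KO libraries, and its log2 fold change was −0.02 ± 0.45 (SE), with values over the alternatives from −0.70 with the GC correction to 0.52 without WT replicate 3. Its sign turned with upper-quartile scaling (0.02).

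The genes of small hydrophobic proteins and of the IFI44 pair had the most negative median of the 7 role groups, −1.67 over 4 genes, and none was past the threshold with edgeR. With an unadjusted p under 0.05 all 4 were lower, against 3.75% of all tested genes. IFI44 was called by DESeq2, which called 0.937% of the genes it gave an adjusted p lower. IFI27, which encodes a small membrane protein of the mitochondrion and nucleus, had 215, 466 and 529 CPM in the WT libraries against 101, 196 and 70.7 CPM in the IRF1-KO libraries. The highest IRF1-KO library lay just under the lowest WT library. The log2 fold change was −1.72 ± 0.47 (SE; edgeR adjusted p = 0.299).

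IFI6, an endoplasmic reticulum protein that hinders flavivirus replication, had 51.6, 123 and 169 CPM in the WT libraries against 23.8, 59.7 and 28.5 CPM in the IRF1-KO libraries. IRF1-KO replicate 2 was above WT replicate 1, so the groups overlapped (log2 fold change −1.61 ± 0.51, SE; edgeR adjusted p = 0.374). IFI44L spread furthest among the WT libraries, at 25.2, 108 and 141 CPM, a 5.62-fold range within the group. In IRF1-KO it had 12.3, 35.7 and 15.6 CPM, with replicate 2 again above WT replicate 1 (−2.10 ± 0.68, SE; edgeR adjusted p = 0.388). IFI44, its neighbour on chromosome 1, was less spread, with 61.8, 91.7 and 119 CPM in the WT libraries against 42.2, 53.4 and 44.2 CPM in the IRF1-KO libraries. The IFI44 groups did not overlap (−0.96 ± 0.23, SE; edgeR adjusted p = 0.211).

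**Figure D3:**
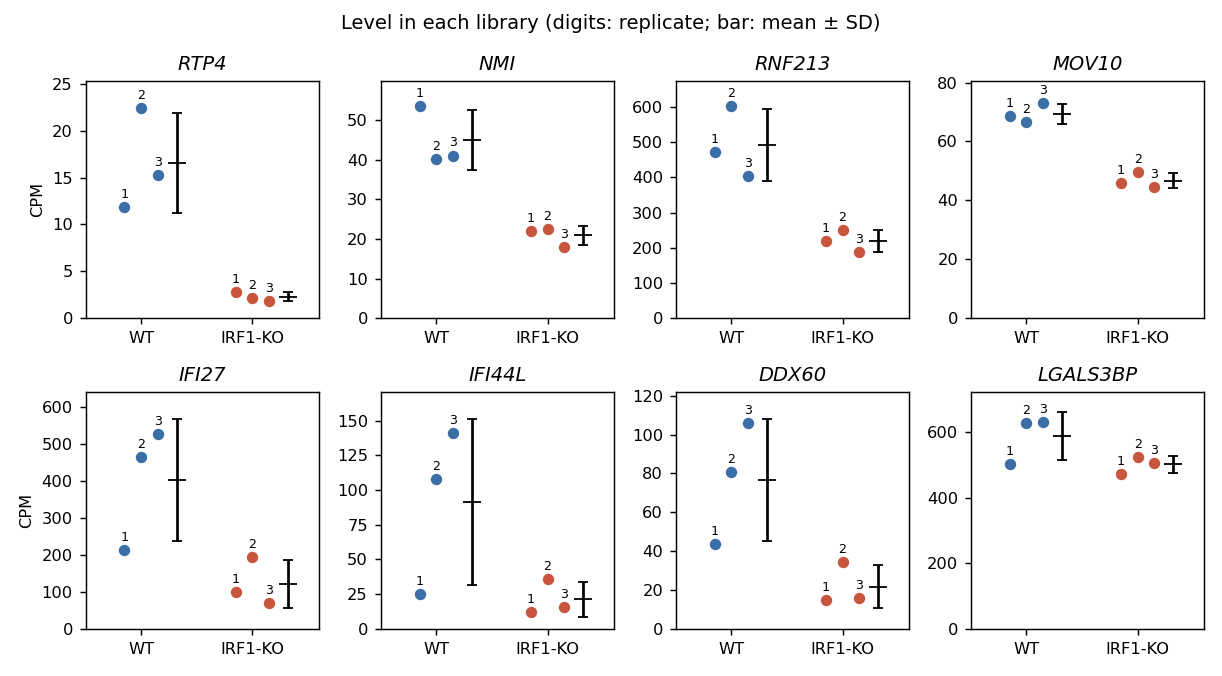
CPM of 8 of the genes (panels) in the 3 WT and 3 IRF1-KO libraries, with digits for the replicate and bars for mean ± SD (n = 3). RTP4, NMI, RNF213 and MOV10 have narrow IRF1-KO groups well below WT, IFI27, IFI44L and DDX60 are low in WT replicate 1 and high in IRF1-KO replicate 2, and LGALS3BP overlaps.

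Of the 10 genes of RNA helicases, nucleases and other RNA-binding factors none was past the threshold with edgeR. DDX60, DDX60L and MOV10 were lower with an unadjusted p under 0.05 (3.75% of all tested genes), and DESeq2 called these 3 (0.937% of its genes). All 10 values were negative, with a median of −0.44. DDX60 and DDX60L are paralogous helicases that lie side by side on chromosome 4. DDX60L had 72.3, 98.3 and 143 CPM in the WT libraries against 39.1, 45.2 and 37.1 CPM in the IRF1-KO libraries, without overlap (log2 fold change −1.37 ± 0.24, SE; edgeR adjusted p = 0.120). DDX60 had 43.6, 80.6 and 106 CPM in the WT libraries against 15, 34.6 and 15.7 CPM in the IRF1-KO libraries. It was also without overlap, and both its groups were wider (−1.81 ± 0.44, SE; edgeR adjusted p = 0.224).

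MOV10, an RNA helicase that restricts retroviruses and retrotransposons, was among the steadiest of the 35 genes. It had 68.5, 66.6 and 73.1 CPM in the WT libraries against 45.8, 49.6 and 44.6 CPM in the IRF1-KO libraries. The difference was small next to that of DDX60, and the groups were far apart for their spread (log2 fold change −0.57 ± 0.10, SE; edgeR adjusted p = 0.127). The RNA exonuclease gene ISG20, the frameshifting inhibitor gene SHFL, the tudor-domain gene TDRD7 and the helicase gene HELZ2 had log2 fold changes from −0.51 to −0.26, each with overlapping groups. HELZ2 had 23.3, 45.6 and 74.1 CPM in the WT libraries against 25.9, 55.9 and 37.7 CPM in the IRF1-KO libraries, and its value was −0.79 with the GC correction and 0.23 without WT replicate 3.

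PNPT1, which encodes the mitochondrial polynucleotide phosphorylase, N4BP1, an endoribonuclease gene, and CNP, a cyclic nucleotide phosphodiesterase gene, differed least in this group. CNP had 159, 168 and 170 CPM in the WT libraries against 166, 168 and 141 CPM in the IRF1-KO libraries. Its libraries were interleaved (log2 fold change −0.06 ± 0.11, SE), and with the GC correction its sign turned (0.00401). N4BP1 had a log2 fold change of −0.10 ± 0.11 and PNPT1 one of −0.16 ± 0.16 (SE).

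The 5 genes that act at membranes and on virus entry had log2 fold changes from −1.20 for IFITM1 to −0.32 for IFITM2, with a median of −0.41 and none past the threshold with edgeR. At an unadjusted p of 0.05 the 3 IFITM genes were lower (3.75% of all tested genes), and DESeq2 called IFITM1 (0.937% of its genes). IFITM proteins sit in cell and endosomal membranes and hinder fusion of enveloped viruses. IFITM1 had 43.5, 60.5 and 60.9 CPM in the WT libraries against 18.4, 33.8 and 19.3 CPM in the IRF1-KO libraries (log2 fold change −1.20 ± 0.26, SE; edgeR adjusted p = 0.175). IFITM3 had 135, 184 and 176 CPM in the WT libraries against 93.8, 132 and 90.6 CPM in the IRF1-KO libraries, so that IRF1-KO replicate 2 lay just under WT replicate 1 (−0.64 ± 0.18, SE; edgeR adjusted p = 0.300). IFITM2 hardly varied within groups, at 85.6, 83.7 and 82.6 CPM in the WT libraries against 67.6, 70.9 and 63.7 CPM in the IRF1-KO libraries.

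The IFITM2 groups did not overlap, with a log2 fold change of −0.32 ± 0.10 (SE). The IFITM genes are related copies clustered on chromosome 11. The exons of IFITM1 and IFITM2 also overlap on the same strand in the file. The counts of the IFITM genes are thus uncertain. LY6E, a membrane-anchored protein that alters virus entry, had 122, 218 and 205 CPM in the WT libraries against 119, 186 and 106 CPM in the IRF1-KO libraries. PLSCR1, a phospholipid scramblase, had 75, 90.2 and 50.5 CPM in the WT libraries against 50.1, 73.0 and 47.6 CPM in the IRF1-KO libraries. Both overlapped between groups, with log2 fold changes of −0.41 ± 0.28 and −0.34 ± 0.25 (SE).

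Among the 3 Schlafen genes, which lie in a cluster on chromosome 17, none was called by edgeR or DESeq2. SLFN11 alone was lower with an unadjusted p under 0.05, against 3.75% of all tested genes. SLFN11, known for sensitising cells to DNA-damaging drugs, had 74.0, 79.9 and 89.1 CPM in the WT libraries against 65.4, 57.1 and 46.5 CPM in the IRF1-KO libraries. Its groups did not overlap (log2 fold change −0.53 ± 0.15, SE; edgeR adjusted p = 0.299). SLFN5 had a log2 fold change of −0.45 ± 0.25 and SLFN12 one of −0.25 ± 0.19 (SE), each with overlapping groups.

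Of the 3 metabolic enzymes none was past the threshold with edgeR, and neither TYMP nor LAP3 had an unadjusted p under 0.05 or was called by DESeq2. IDO1, which begins the breakdown of tryptophan to kynurenine, had 1.42, 5.44 and 2.31 CPM in WT. In IRF1-KO it had 0.183, 0.314 and 0.000 CPM, which were 3, 9 and 0 counts. All IRF1-KO libraries were below all WT libraries, and at such counts the fitted log2 fold change of −4.15 ± 0.91 (SE; edgeR adjusted p = 0.175) depends on the prior count. Since IDO1 passed the filter through WT alone, its unadjusted p (0.00214) and its call by DESeq2 are no support for a difference in this group of enzymes. TYMP, thymidine phosphorylase, varied within both groups, with 8.97, 30.4 and 16.9 CPM in the WT libraries against 5.91, 14.7 and 3.52 CPM in the IRF1-KO libraries. Its log2 fold change was −1.21 ± 0.62 (SE), and −1.99 with the GC correction, its transcript being 70.0% GC. Exons of TYMP overlap those of SCO2 and ODF3B on the same strand, so its counts are uncertain. LAP3, a leucine aminopeptidase, had 143, 111 and 168 CPM in the WT libraries against 120, 113 and 113 CPM in the IRF1-KO libraries, with overlapping groups (−0.29 ± 0.15, SE).

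RNF213 and LGALS3BP had the 2 highest mean CPM of the 35 genes in WT, and their fitted differences were far apart. RNF213, a giant ubiquitin ligase with ATPase activity that coats intracellular bacteria, had 472, 603 and 403 CPM in the WT libraries against 218, 250 and 189 CPM in the IRF1-KO libraries. The groups did not overlap (log2 fold change −1.17 ± 0.18, SE; edgeR adjusted p = 0.0718). It passed the threshold without WT replicate 3 (edgeR adjusted p = 0.0409) and with no filter on low counts (0.0393). LGALS3BP, a secreted glycoprotein that binds galectin-3, had 504, 627 and 632 CPM in the WT libraries against 473, 525 and 507 CPM in the IRF1-KO libraries. Its highest 2 IRF1-KO libraries lay above the lowest WT library (−0.23 ± 0.12, SE; edgeR adjusted p = 0.668). Whether the 2 genes differ in response was not tested.

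Levels per length, as mean CPM per kb of exon in WT, ranged from 0.5 for SOCS1 to 172 for LGALS3BP. IFITM3 (143), IFI6 (136) and IFI27 (97.2) followed LGALS3BP. The length is the summed exon length in the file, 4147 bases for IFI27 and 842 for IFI6. Ranks of genes on this scale thus depend on the annotated exons. In IRF1-KO the same scale gave 147 for LGALS3BP, 91.5 for IFITM3, 44.3 for IFI6 and 29.5 for IFI27. LY6E, at 68.9 in WT and 52.0 in IRF1-KO, thus stood below IFI6 in WT and above it in IRF1-KO. RNF213, whose exons sum to 28570 bases, was at 17.3 in WT and 7.67 in IRF1-KO.

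Differences can be set beside the promoter matches. Over the 18 genes with an ISRE core match the median log2 fold change was −1.04, and over the 12 without one it was −0.52. By number of matches, the medians were −0.52 for no match (12 genes), −0.45 for 1 match (10 genes) and −1.67 for 2 or 3 matches (8 genes). The ranges overlapped: RNF213, with no match in its window, was at −1.17, and IFITM3, with 2, at −0.64. The STAT dimer element, searched as TTC, any 3 bases and GAA, reads the same on both strands. It was found for 9 of 30 genes (30%), against 7.66% of all windows and 8.71% of tested genes with a window. In 3 genes the STAT dimer element overlapped an ISRE core match. Genes with it had a median of −1.11 and genes without it one of −0.54. IFI27, IFITM1, EPSTI1, NMI, PLSCR1 and DDX60 held both elements. IFI35, SLFN11 and PNPT1 held the STAT dimer element alone, with log2 fold changes of −0.97, −0.53 and −0.16. A form of the NF-kappaB element, GGGA, any 2 bases and TTCC, was searched on both strands. It was found for 0 of 30 genes, in 1.61% of all windows and for 2.19% of tested genes with a window. These matches are descriptions of letters in the windows and were not tested against the differences.

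**Figure D4:**
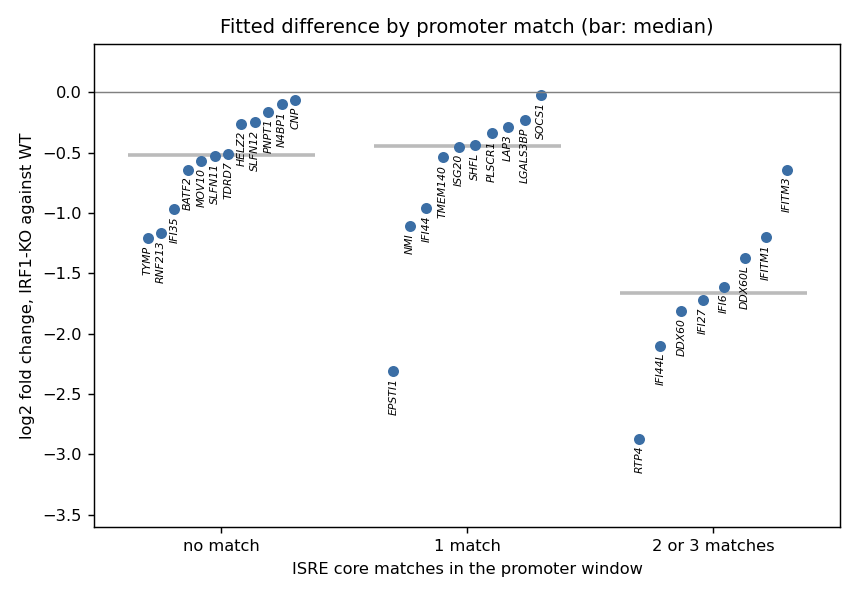
Fitted log2 fold change of IRF1-KO against WT (y axis) for the 30 genes with a promoter window, by number of ISRE core matches (x axis), with grey bars at the medians. The genes with 2 or 3 matches lie between −2.87 and −0.64, those with 1 between −2.31 and −0.02, and those with none between −1.21 and −0.06.

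The interferon pathway itself was read from lists of other genes. None of the 9 interferon genes listed exceeded 5 CPM in any library, 1 of them (IFNE) was tested and 2 (IFNK and IFNG) had no counts. IFNE had 1.75, 4.46 and 2.11 CPM in the WT libraries against 0.854, 1.33 and 1.99 CPM in the IRF1-KO libraries, with overlapping groups. Of the 9 receptors and kinases, none was called by edgeR or DESeq2. With an unadjusted p under 0.05, 3 were lower and 1 higher, against 3.75% and 5.39% of all tested genes. The smallest p was that of TYK2, a JAK kinase of the type I receptor, with 29.9, 39.1 and 38.5 CPM in the WT libraries against 45.1, 50.1 and 45.1 CPM in the IRF1-KO libraries (log2 fold change 0.38 ± 0.14, SE; edgeR adjusted p = 0.429).

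Of the 8 transcription factors tested, none was past the threshold with edgeR. With an unadjusted p under 0.05, 5 were lower and 1, IRF1, was higher, against 3.75% and 5.39% of all tested genes. DESeq2 called 1 lower and 1, IRF1, higher, against 0.937% and 1.53% of its genes. In 5 every IRF1-KO library lay below every WT library and in 1 above, against 6.75% and 8.03% of all tested genes. STAT2 and IRF9, both without overlap, had log2 fold changes of −0.61 ± 0.17 and −0.77 ± 0.23 (SE; edgeR adjusted p = 0.299 and 0.315). IRF7, which amplifies type I interferon responses, had 4.10, 9.63 and 13.0 CPM in the WT libraries against 5.85, 15.1 and 7.83 CPM in the IRF1-KO libraries, with replicate 2 the highest of all 6 libraries. Its log2 fold change was 0.11 ± 0.48 (SE), and −0.40 with the GC correction, its transcript being 66.8% GC.

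Of 6 negative regulators none was past the threshold with edgeR. USP18 alone was lower with an unadjusted p under 0.05 (3.75% of all tested genes) and was called by DESeq2 (0.937% of its genes). USP18, which removes ISG15 and blocks the type I receptor, had 10.7, 16.6 and 17.7 CPM in the WT libraries against 5.91, 8.73 and 4.53 CPM in the IRF1-KO libraries (log2 fold change −1.23 ± 0.30, SE; edgeR adjusted p = 0.211). The list of 23 relatives of the 35 genes that are not among them, such as IFI27L1, HELZ and SLFN13, had 18 tested genes and a median of −0.10. None of these was past the threshold with edgeR or DESeq2, and 0 were at an unadjusted p under 0.05. In 1 (IFI27L1) every IRF1-KO library lay below every WT library, against 6.75% of all tested genes. The member of that list with the smallest p, SOCS4, had a log2 fold change of −0.24 ± 0.12 (SE; edgeR adjusted p = 0.599).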

How the data were processed

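Poly(A)-selected RNA from 6 libraries was counted per gene by the authors, and the deposited values are whole-number counts with the column layout of featureCounts, per the file headers. The submitters' processing notes name featureCounts 0.6.1, edgeR 3.2.2 and build GRCh38 (hg38). No aligner, annotation or strand setting is given in the sources used, so reads of SHFL, CNP and TMEM140 cannot be told apart from those of genes on the opposite strand whose exons overlap theirs. The file's exon length of each gene, deposited with the counts, gave levels per kb. No count column lacked a sample.

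The test was run in edgeR 4.0.16 under R 4.3.3 (filterByExpr, TMM, robust dispersion, quasi-likelihood F test, two-sided, Benjamini-Hochberg over all tested genes). Standard errors are those implied by the F statistic, and folds are antilogs of fitted log2 fold changes. Libraries of a group differed by more than sampling noise (chi-square per degree of freedom over genes from 25.8 to 55). The procedure was also run on simulated counts. These held no GC trend and no deviating libraries, so that run cannot show how the procedure behaves with such features. For the GC correction, a natural spline (5 degrees of freedom) of each library's deviations on transcript GC content from GENCODE 29 entered the fit as an offset. Alternatives also included DESeq2 1.42.0 and limma-voom (limma 3.58.1). The genes, lists, role groups and motifs were chosen with earlier results of these data known. By rule, values in every library are printed for genes past the threshold and, in each role group, for the smallest p and the highest level per kb. From each pathway list the gene with the smallest p is given, and IRF1. One such gene, and one marker gene, are not reported here. Other genes with such values were added after these were seen.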

Additional observations from a re-analysis of the deposited data

How the results depend on the processing

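The median log2 fold change of the 35 genes stayed between −0.72 and −0.46 over all alternatives, including each library left out in turn. The number past the threshold was 1 with edgeR. It was 11 with DESeq2 and 3 with no filter on low counts, and without each library in turn it ranged from 0 to 3. The share of all genes past the threshold was not worked out with no filter or without a library. Genes without overlap numbered 14 with upper-quartile factors (4.86% of all tested genes), 19 with the GC correction (5.6%), and from 16 to 27 without each library in turn (10.1% to 14.7%, where fewer libraries make overlap rarer). No same-numbered libraries are said to be paired, and deviations of WT and IRF1-KO libraries with the same number had correlations of −0.015, 0.253 and 0.057 for replicates 1 to 3. These are not all over 0.1, and the WT libraries did not each correlate best with their own number. Such correlations over all genes cannot decide whether same-numbered libraries were paired. With the replicate number as a block 1 gene was past the threshold, RNF213 (−1.16, edgeR adjusted p = 0.0450), while RTP4 was not (−2.85, edgeR adjusted p = 0.0509). The cause of these shifts was not tested. Signs turned for 3 genes with values near 0. SOCS1 was at 0.04 with limma-voom, 0.05 with the replicate block, 0.02 with upper-quartile factors, −0.70 with the GC correction, and from −0.22 to 0.52 without each library in turn, above 0 without IRF1-KO replicate 3 (0.15) and without WT replicate 3 (0.52). CNP was at 0.00401 with the GC correction and from −0.11 to 0.01 without each library in turn, above 0 without IRF1-KO replicate 3. HELZ2, at −0.26, was at −0.79 with the GC correction and from −0.58 to 0.23 without each library in turn, above 0 without WT replicate 3. With no more than 28 counts of SOCS1 and 9 of IDO1 in an IRF1-KO library, depth limits both genes.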
